A study of Arabidopsis thaliana with 6 samples.

Results

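The OTP genes (for organelle transcript processing) of Arabidopsis thaliana are nuclear genes whose proteins are imported into chloroplasts or mitochondria and act there on particular RNAs. They were taken as the probe sets that have 1 gene and whose symbol, updated to RefSeq's TAIR10.1 table, begins with OTP and a digit. That table holds 10 such genes, and 8 of them were matched to a probe set: OTP43, OTP70, OTP80, OTP81, OTP84, OTP85, OTP86 and OTP87. These are 8 of 13356 genes with a probe set of their own. OTP51 and OTP82 had no such match and were not analysed here. The names alone pick the genes, but the family was selected for description from earlier results of these data, with its genotype and replicate-number values known. Its values are therefore given as a description, without a test, and the counts of calls are printed beside those of all probe sets with nothing read from them.

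Total RNA came from whole seedlings, with shoot and root, that were 7 days old, had had 2 days of vernalization as seeds and grew on MS medium of full strength. It was hybridised to 6 Affymetrix arrays. The control group, 3 arrays, carried the empty vector pCAMBIA 1302. The other group, 3 arrays, carried 35S-PaWRKY1, which by its name places a gene of the WRKY family of plant transcription factors under the 35S promoter of cauliflower mosaic virus, active in most tissues. The labels call the arrays of a group biological replicates but give no transgenic line, sowing or number of plants, so the SD and p-values measure only the spread between these samples.

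Pentatricopeptide repeat (PPR) proteins, the family to which the OTP proteins belong, are chains of short helical repeats that read an RNA base by base. Each usually serves a few sites. Many members with an added E or DYW domain direct C-to-U editing, in which a cytidine of an organelle transcript is changed to uridine, while others are needed for intron splicing or for stable transcript ends. Several such genes were found through mutants with faulty chloroplasts or respiration. The arrays measured the nuclear OTP mRNAs, and editing or splicing was not measured.

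The deposited values are centred for each probe set on the mean of the 3 control arrays. Base 2 and the direction, a higher value for more transcript, are assumed from the usual output of RMA, which the submitters name. They give differences between arrays and no expression level, so the OTP genes cannot be ranked by abundance, and the labelled tissue cannot be checked against marker levels. In whole seedlings, fewer cells of a type and less RNA per cell cannot be told apart. Of the marker lists, 4 of 11 shoot and 3 of 11 root genes were matched, and 0 passed in limma after Benjamini-Hochberg adjustment, against 0.0308% of all probe sets. An unadjusted p under 0.05 was reached by 1 (XTH26, of the root list) and by 8.01% of all probe sets. The root genes moved both ways, with XTH26 at -0.39, EXPA7 at -0.037 and PYK10 at 0.25. Of the shoot genes, SBPASE differed by -0.075, and LHCB4.1, PSAE-1 and PRK by 0.094, 0.076 and 0.064. The shoot mean ran from -0.048 to 0.025 on the control arrays and from 0.0074 to 0.076 on the 35S-PaWRKY1 arrays. The root mean ran from -0.061 to 0.11 and from -0.11 to -0.011, and the part of either in the OTP values was not tested. Over all 22746 probe sets, the first principal component (41.7% of the variance) separated both replicate 3 arrays, whose scores were 40.7 (control) and 12.8 (35S-PaWRKY1), from the remaining 4, whose scores ran from -22.4 to -2.73.

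The series set 35S-PaWRKY1 plants against empty-vector plants. Of the 8 OTP genes, 7 had a 35S-PaWRKY1 mean below control and 1, OTP84, had a mean above it. The differences ran from -0.38 for OTP70 to 0.16 for OTP84, with a median of -0.18. Over all probe sets, 60.5% lay below control and the median was -0.037. In limma, 0 of the 8 passed an adjusted p of 0.05, a threshold that 0.0308% of all probe sets passed. An unadjusted p under 0.05 was reached by 1 of the 8, OTP70, and by 8.01% of all probe sets. The groups did not overlap for 1 of the 8, OTP85, on the lower side, where 9.17% of all probe sets had this pattern. On the higher side the count was 0 of 8, against 5.34% of all probe sets. For 5 of the 8 the difference was smaller than the larger of the 2 group SDs, and the unadjusted 95% interval of the difference held 0 for 7 of the 8.

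**Figure D1:**
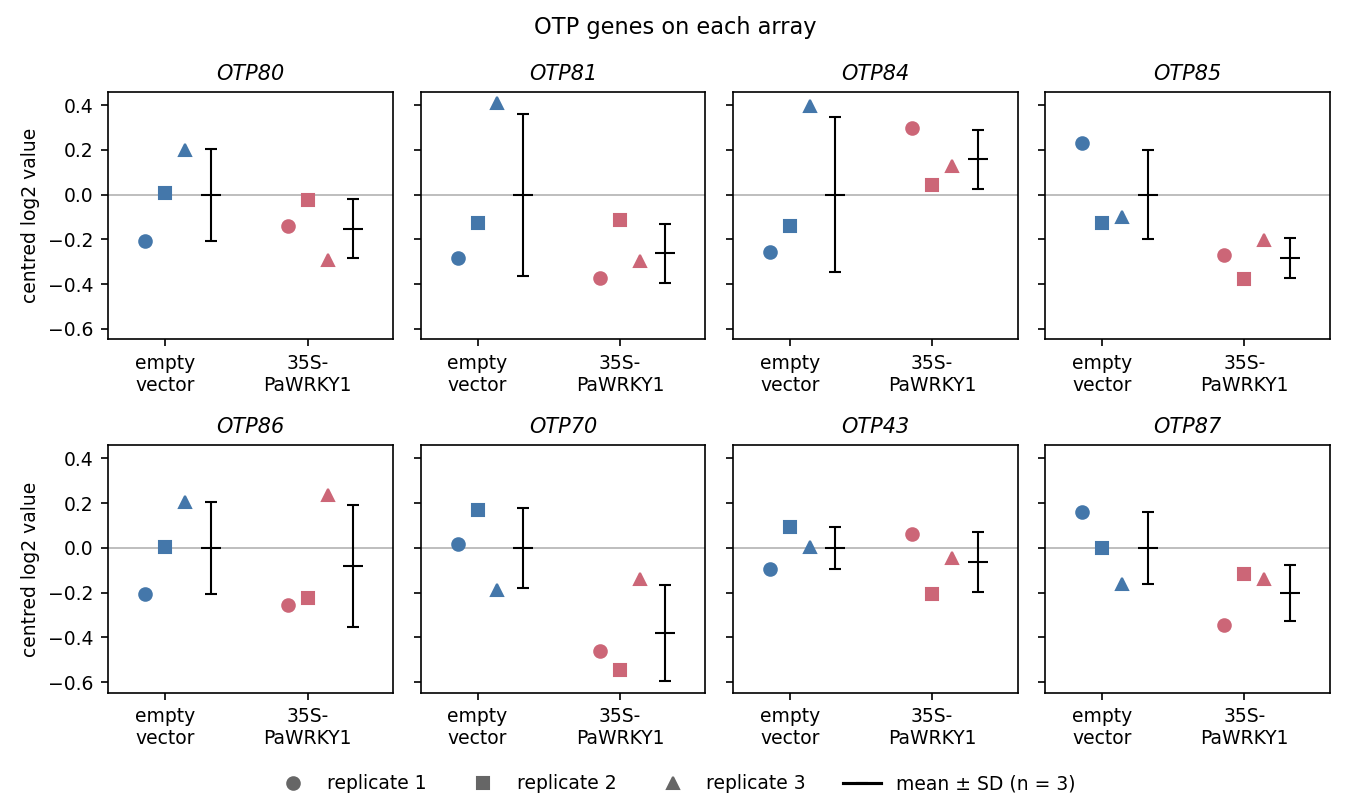
Centred log2 values of the 8 OTP genes (vertical axis) on the 3 empty-vector arrays (blue) and the 3 35S-PaWRKY1 arrays (red). Symbols mark the replicate number, and black bars give the mean ± SD (n = 3). The groups are apart for OTP85 and overlap for the other genes, and the control arrays of OTP81 and OTP84 are spread most widely.

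The genes for plastid RNA editing come first. OTP85 (AT2G02980, probe set 266794_at), needed for editing of the plastid ndhD transcript, had control values of 0.23, -0.13 and -0.10 for replicates 1 to 3. The 35S-PaWRKY1 values were -0.27, -0.38 and -0.20. Each of the latter lay under the lowest control, so the groups did not overlap. The difference was -0.28 (SE 0.121, n = 3 per group; 1.22-fold if log2), with an unadjusted 95% interval from -0.57 to 0.002. OTP85 was also the single OTP gene that lay below control in all 3 same-numbered pairs of arrays, as did 21.7% of all probe sets. Its difference was -0.17 when control replicate 1, the highest of the controls, was left out.

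OTP81 (AT2G29760, probe set 266668_at), a DYW-type protein that serves several plastid editing sites, among them sites in accD and matK, had the widest control spread of the family. The control values were -0.28, -0.13 and 0.41. The 35S-PaWRKY1 values were -0.37, -0.12 and -0.30. Control replicate 3 lay above the 5 other arrays, and those 5 mixed the groups. The mean of 35S-PaWRKY1 was -0.26 ± 0.13 (SD, n = 3) against a control SD of 0.36, with an SE of the difference of 0.185. Without control replicate 3 the difference was -0.058, so most of its size came from that array, and without control replicate 1 it was -0.40.

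OTP80 (AT5G59200, probe set 247737_at), needed for editing of the plastid rpl23 transcript for a ribosomal protein, had control values of -0.21, 0.0080 and 0.20. Its 35S-PaWRKY1 values were -0.14, -0.024 and -0.29, and the groups overlapped. The replicate 3 arrays stood at opposite ends, the control as the highest of the 6 and 35S-PaWRKY1 as the lowest. The difference was -0.15 (SE 0.131, n = 3 per group), at -0.26 without control replicate 1, -0.082 without 35S-PaWRKY1 replicate 3 and -0.051 without control replicate 3. It was 0.019 with both replicate 3 arrays left out.

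OTP84 (AT3G57430, probe set 251631_at), which serves editing sites in ndhB, ndhF and psbZ, was the single OTP gene above control. Its control values were -0.26, -0.14 and 0.40, and its 35S-PaWRKY1 values were 0.30, 0.043 and 0.13. All 3 of the latter lay between the middle and the highest control. The difference was 0.16 (SE 0.179, n = 3 per group), with an unadjusted 95% interval from -0.27 to 0.58. Leaving out control replicate 3 gave 0.36, control replicate 2 gave 0.088, control replicate 1 gave 0.030 and 35S-PaWRKY1 replicate 1 gave 0.086.

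OTP86 (AT3G63370, probe set 251168_at), needed for editing of the plastid rps14 transcript, followed the replicate number more than the genotype. The control values were -0.21, 0.0026 and 0.20. The 35S-PaWRKY1 values were -0.25, -0.22 and 0.23. Replicate 3 was the highest array in each group and replicate 1 the lowest. The difference was -0.081 (SE 0.168, n = 3 per group). It was -0.24 without 35S-PaWRKY1 replicate 3, -0.18 without control replicate 1, -0.0093 without 35S-PaWRKY1 replicate 2, 0.0059 without 35S-PaWRKY1 replicate 1 and 0.021 without control replicate 3, so it had no settled sign.

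OTP70 (AT4G25270, probe set 254051_at), needed for splicing of the intron of plastid rpoC1, which encodes a subunit of the plastid RNA polymerase, had the largest difference of the 8. The control values were 0.019, 0.17 and -0.19, and the 35S-PaWRKY1 values were -0.46, -0.55 and -0.14. Replicates 1 and 2 of 35S-PaWRKY1 lay under every control, while replicate 3 lay just above the lowest control. The difference was -0.38 (SE 0.143, n = 3 per group; 1.30-fold if log2), with an unadjusted 95% interval from -0.72 to -0.042. It kept its sign with each array left out, from -0.50 to -0.30, and was -0.60 without both replicate 3 arrays.

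Of the mitochondrial pair, OTP43 had the smallest difference of the 8 genes. OTP43 (AT1G74900, probe set 262224_at), needed for trans-splicing of the first intron of nad1, had control values of -0.096, 0.091 and 0.0049 and 35S-PaWRKY1 values of 0.063, -0.21 and -0.047. The groups overlapped, and this gene had the smallest control SD of the family, 0.094. The difference was -0.063 (SE 0.104, n = 3 per group), with an unadjusted 95% interval from -0.31 to 0.18. It was 0.0080 without 35S-PaWRKY1 replicate 2, -0.018 without control replicate 2, -0.13 without 35S-PaWRKY1 replicate 1 and -0.11 without control replicate 1.

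OTP87 (AT1G74600, probe set 260217_at), needed for editing of mitochondrial nad7 and atp1, had control values of 0.16, -3.0e-05 and -0.16. The 35S-PaWRKY1 values were -0.35, -0.12 and -0.14. Only control replicate 3 reached into the range of the 35S-PaWRKY1 arrays. The difference was -0.20 (SE 0.117, n = 3 per group), at -0.12 without control replicate 1 and -0.13 without 35S-PaWRKY1 replicate 1. OTP87 and OTP43 lie on the same chromosome with 29 protein-coding genes between them in the RefSeq table.

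By the mean of the family, the groups lay next to each other. Over the 8 genes the control arrays averaged -0.080, -0.016 and 0.096 in order of number. The 35S-PaWRKY1 arrays averaged -0.19, -0.20 and -0.094. The lowest control array, replicate 1, lay just above the highest 35S-PaWRKY1 array, replicate 3. The number of genes below 0 was 5, 4 and 3 on the control arrays and 6, 7 and 6 on the 35S-PaWRKY1 arrays. Of all probe sets, 57.2%, 47.3% and 46.7% lay below 0 on the control arrays and 56.7%, 58.0% and 60.2% on the 35S-PaWRKY1 arrays. The family median of -0.18 depended on control replicate 3: without that array it was -0.060, and 6 of 8 genes lay below control. With both replicate 3 arrays left out, an alternative chosen after seeing the data, the median was -0.10, again with 6 of 8 genes below control. The median over all probe sets was -0.023 without control replicate 3 and -0.018 without both replicate 3 arrays. The gene SDs ran from 0.094 to 0.36 among controls and from 0.088 to 0.27 among 35S-PaWRKY1 arrays, with medians of 0.15 and 0.12 over all probe sets. The SD was larger in the controls for 5 of the 8 genes and for 59.8% of all probe sets.

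**Figure D2:**
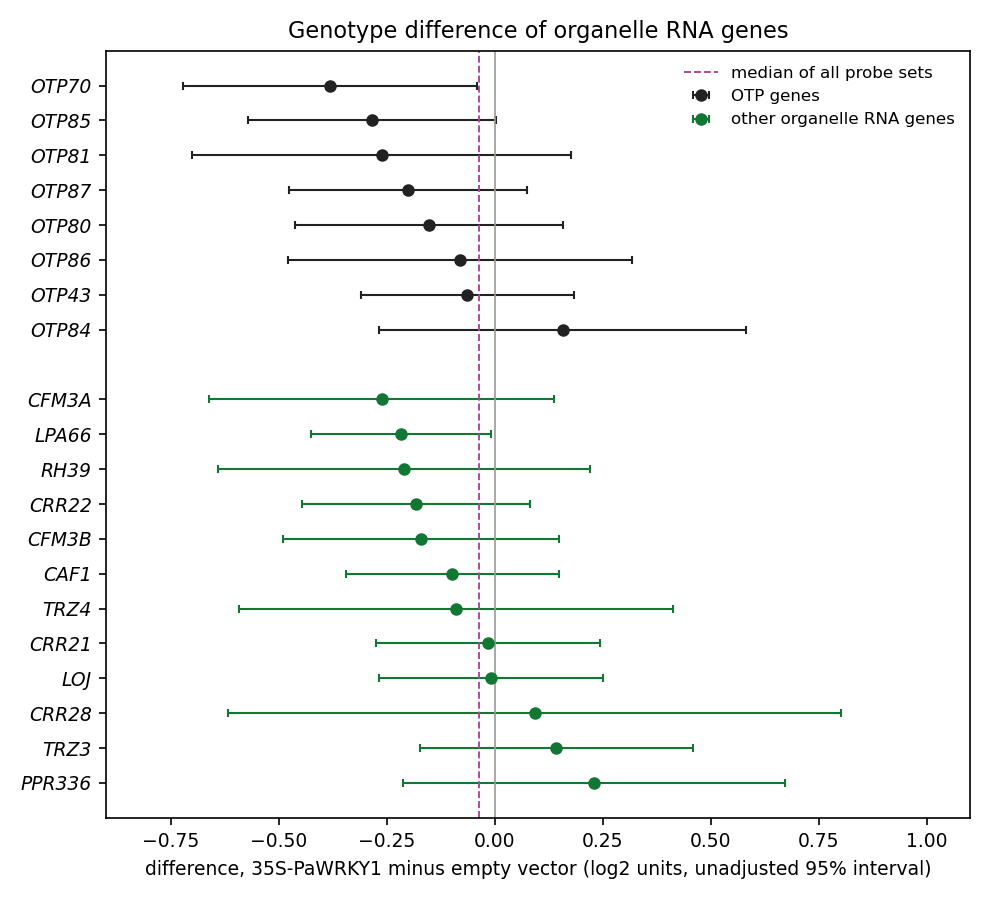
Difference of 35S-PaWRKY1 minus empty vector (horizontal axis, log2 units) with its unadjusted 95% interval for the 8 OTP genes (black) and 12 other nuclear genes of organelle RNA metabolism (green). The dashed line is the median of all probe sets, -0.037. The interval lies wholly below 0 for OTP70 and LPA66.

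The arrays carry the numbers 1 to 3 in both groups, and same-numbered arrays deviated together over all probe sets, so the OTP genes were also described by number. With the number as a block, 0 of the 8 passed an adjusted p of 0.05 in limma, against 0.0264% of all probe sets. An unadjusted p under 0.05 was then reached by 1 of the 8, OTP85, and by 10.8% of all probe sets. Over the 24 same-numbered differences of the 8 genes, 16 lay below 0. By number, 5, 6 and 5 of the 8 genes lay below control for numbers 1, 2 and 3, where the shares of all probe sets were 49.6%, 58.0% and 62.1%. The median difference over the 8 genes was -0.070, -0.17 and -0.078, and over all probe sets it was 0.0014, -0.038 and -0.067.

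The genes did not share 1 pattern over the numbers. OTP70 differed by -0.48 and -0.72 for numbers 1 and 2 and by 0.048 for number 3. OTP87 was also highest for number 3, at -0.51, -0.12 and 0.022 for numbers 1 to 3. OTP81 and OTP80 ran the other way, with -0.71 and -0.49 for number 3 and values from -0.093 to 0.070 for numbers 1 and 2. OTP84 went from 0.56 for number 1 and 0.18 for number 2 to -0.27 for number 3. OTP81, with the largest difference for number 3, was thus at -0.093 for number 1, while OTP87, at -0.51 for number 1, was near 0 for number 3.

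**Figure D3:**
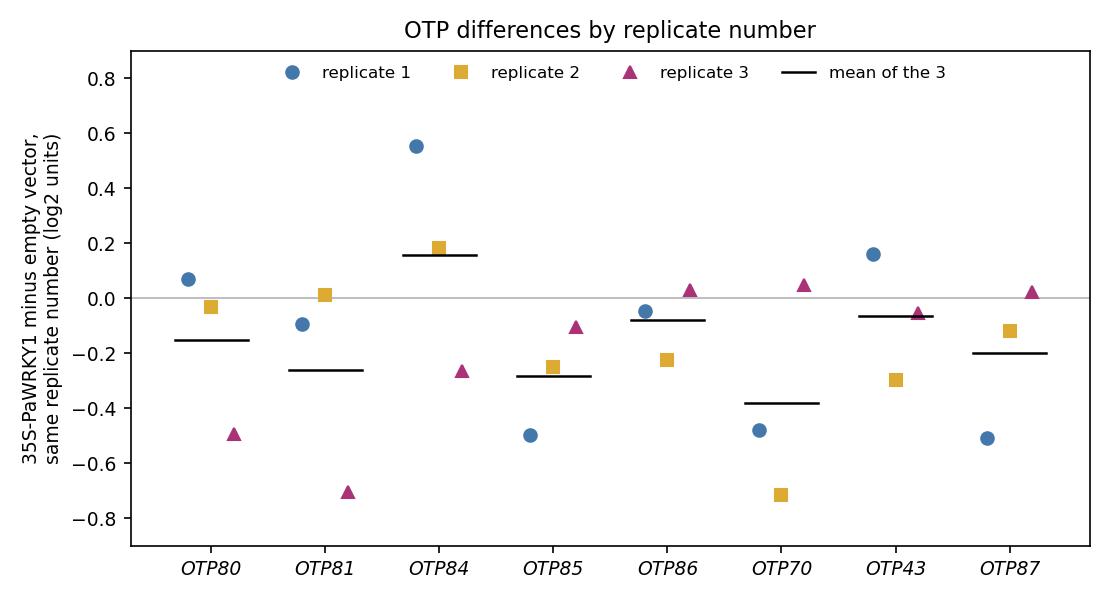
Difference of 35S-PaWRKY1 minus empty vector between arrays of the same replicate number (vertical axis, log2 units) for each OTP gene, with symbols for the number and a black line for the mean of the 3. OTP85 is the gene with all 3 symbols below 0, and number 3 is the lowest symbol for OTP80, OTP81 and OTP84.

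The replicate number itself was set against the spread in limma's F test with genotype in the fit. It passed an adjusted p of 0.05 for 0 of the 8 OTP genes and for 0.426% of all probe sets. An unadjusted p under 0.05 was found for 1 of the 8, OTP86, and for 12.8% of all probe sets. The mean of the number 3 arrays exceeded that of numbers 1 and 2 by 0.39 for OTP86, 0.28 for OTP81 and 0.28 for OTP84. The excess was -0.075 for OTP87, -0.014 for OTP85 and 0.016 to 0.046 for OTP43, OTP70 and OTP80. The median over the 8 was 0.044, against -0.0022 over all probe sets.

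Transcripts of the organelles on which these proteins act were measured on the same arrays. Of 13 such genes listed for the 8 proteins, 9 were matched, through 15 probe sets. In limma, 0 of the 15 passed for genotype after adjustment, against 0.0308% of all probe sets. An unadjusted p under 0.05 was reached by 4 of the 15 and by 8.01% of all probe sets. These were psbZ and the nad1 probe sets 257322_at, 257323_at and 257325_at. Since nad1 alone holds 7 of the 15 probe sets, the 15 are not independent. Plastid rpoC1, on whose RNA OTP70 acts, was at -1.10, -1.22 and 2.32 on the control arrays and at -1.05, -0.92 and 2.19 on the 35S-PaWRKY1 arrays. It was high on the replicate 3 array of each group. The replicate number passed for it and for accD, each with an adjusted p of 0.00485 in limma's F test. These were 2 of the 15 probe sets, and 0.426% of all probe sets passed. The number 3 arrays exceeded the others by 3.33 for rpoC1 and 2.85 for accD, whereas the excess was 0.041 for OTP70 and 0.28 for OTP81. For matK the replicate 3 arrays were also the highest, at 0.78 (control) and 0.89 (35S-PaWRKY1). For rps14 the replicate 3 arrays were the lowest, at -0.49 (control) and -0.39 (35S-PaWRKY1). The excess was -0.81 for rps14 and 0.39 for OTP86, which acts on it. In limma's F test for the number, adjusted p was 0.078 for matK and 0.27 for rps14. For OTP85 and its ndhD the genotype differences were -0.28 and -0.18 (SE of ndhD 0.183, adjusted p 0.85). The transcripts listed for OTP70, OTP81 and OTP86 lay above control, while these OTP genes lay below it, at -0.38, -0.26 and -0.081. The differences were 0.075 for rpoC1 (OTP70 and OTP81), 0.23 for accD and 0.069 for matK (both OTP81), and 0.20 for rps14 (OTP86). Their adjusted p ran from 0.911 to 0.995 in limma. For OTP84, psbZ lay 0.36 above control with groups that did not overlap (SE 0.101, adjusted p 0.417 in limma), and ndhF was at 0.036 (SE 0.159). For OTP87, nad7 was at -0.22 (SE 0.11, adjusted p 0.673 in limma), with all 3 35S-PaWRKY1 arrays under the lowest control. Of all probe sets, 9.17% had groups apart on the lower side, as nad7 did, and 5.34% on the higher side, as psbZ did.

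For OTP43, 7 probe sets named nad1 ran from -0.027 to 0.79. Of these, 6 lay above control, and for 3 every 35S-PaWRKY1 array lay above every control array. Over all probe sets 60.5% lay below control, and 5.34% had groups apart on the higher side. The 7 probe sets carry the name of 1 gene and are not independent of each other. The highest, 257325_at, was at -0.26, -0.014 and 0.28 on the control arrays and at 0.61, 0.75 and 1.01 on the 35S-PaWRKY1 arrays, with an adjusted p of 0.357 in limma. Which part of nad1 each probe set reads is not given in the sources used here.

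**Figure D4:**
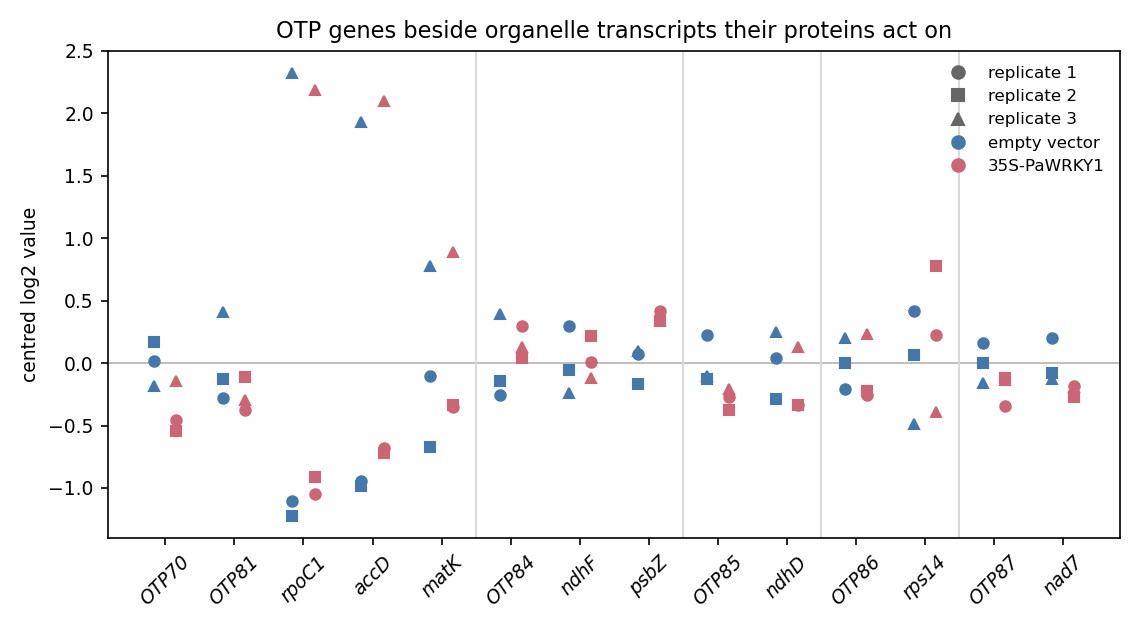
Centred log2 values (vertical axis) of OTP genes and of organelle transcripts on which their proteins act, side by side, for empty-vector (blue) and 35S-PaWRKY1 (red) arrays, with symbols for the replicate number. The replicate 3 arrays of both groups stand at 1.93 to 2.32 for rpoC1 and accD, and the OTP values stay between -0.55 and 0.41.

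Other nuclear genes of organelle RNA metabolism were looked up from a list of 204 symbols, of which 12 were matched to a probe set. In limma, 0 of the 12 passed in either direction, with adjusted p from 0.612 to 0.993, against 0.0308% of all probe sets. An unadjusted p under 0.05 was reached by 1 of the 12 and by 8.01% of all probe sets. For the replicate number 0 of the 12 passed, against 0.426% of all probe sets. There, 2 of the 12 and 12.8% of all probe sets had an unadjusted p under 0.05. Of the 12, 9 lay below control, as did 60.5% of all probe sets, and 3 lay above. The median over the 12 was -0.094, against -0.037 over all probe sets. The median of the 12 was -0.18 without control replicate 1, -0.019 without control replicate 3 and -0.043 without 35S-PaWRKY1 replicate 1. The groups did not overlap for 1 of the 12, on the lower side, where 9.17% of all probe sets had this pattern. That gene was LPA66, a PPR gene for editing of plastid psbF, at 0.036, 0.032 and -0.068 on the control arrays and -0.32, -0.14 and -0.19 on the 35S-PaWRKY1 arrays. Its difference was -0.22 (SE 0.0879, adjusted p 0.612 in limma). Lowest after it by moderated t were CRR22, a PPR gene for editing of plastid ndh and rpoB transcripts, at -0.18 (SE 0.112), and the plastid splicing factor genes CFM3A at -0.26 (SE 0.168) and CFM3B at -0.17 (SE 0.135). CFM3A had the array pattern of OTP81, with control replicate 3 at 0.38 and the other 5 arrays from -0.35 to -0.11.

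At the other end of the list were PPR336, for a mitochondrial PPR protein, at 0.23 (SE 0.186), TRZ3, for an enzyme that trims tRNA 3′ ends, at 0.14 (SE 0.133), CRR28, for editing of plastid ndh transcripts, at 0.092 (SE 0.299), and the PPR gene LOJ at -0.0092 (SE 0.109). CRR28 showed the replicate number as OTP86 did, with 0.50 and 0.66 on the replicate 3 arrays and -0.29 to -0.14 on the other 4. Its adjusted p for the number was 0.091 in limma. A pair of further PPR genes, looked up after the values were seen, were PPR596 at -0.023 (SE 0.125) and MEF8S at 0.14 (SE 0.148).

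The genes whose values over the 6 arrays were most like the mean of the 8 OTP genes were taken from 1571 probe sets with a gene name beyond the locus tag. With so many searched over 6 arrays, high correlations arise by selection, and they are given as a description. Pearson's r was 0.984 for FY, a factor of mRNA 3′ end formation, 0.98 for the exportin gene XPO1B and 0.977 for BSMT1, a methyltransferase gene for benzoic and salicylic acid. It was 0.968 for SKU5, a gene of directional root growth, 0.968 for the COP9 signalosome gene CSN5B and 0.954 for ATPMEPCRD. FY differed by -0.16 (SE 0.0855) and XPO1B by -0.34 (SE 0.122), with adjusted p of 0.679 and 0.553 in limma. The most opposite values were those of GRX480 (r = -0.991), CYP71B28 (r = -0.989) and ZCW7 (r = -0.984), which lay above control by 0.34, 0.48 and 0.11.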

How the data were processed

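Per the submitters' processing notes, MAS5 and RMA were used, in roles the notes leave unsaid. The log2 values were taken as deposited by the authors. Their base, their direction and how arrays were normalized to each other are not stated in those sources. The largest absolute control mean of a probe set was 1.3e-06. The control arrays had medians of -0.02428, 0.007748 and 0.01369, and the 35S-PaWRKY1 arrays -0.02916, -0.03502 and -0.04642. Of 22810 probe sets, 64 Affymetrix controls were left out.

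The platform annotation held by GEO (possibly outdated) gave 1 gene for 13513 probe sets, several for 503 and none for 8730. Symbols were updated through RefSeq's TAIR10.1 table, where 29 entries had no match.

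Genotype was tested in limma 3.58.1 (lmFit, eBayes; R 4.3.3) over all probe sets, two-sided, with Benjamini-Hochberg adjustment and a threshold of 0.05, and the replicate number with an F test in the fit with genotype. SE values are moderated. Precision is limited by having 3 arrays in a group. The fits were tested on simulated data.

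After subtracting group means, arrays of the same number correlated by 0.314, 0.194 and 0.453 across probe sets. Since each exceeds 0.1, numbers were treated as pairs, a choice from the data that no label states. Unlike-numbered control 1 and 35S-PaWRKY1 2 also passed 0.1, at 0.171, so the rule does not by itself set number 2 apart as a pair. The fit without a block stayed the reported one.

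The members and lists were chosen with earlier results of these data known. Named were all members, the 4 highest and 4 lowest list genes by moderated t, the 6 genes most like and 3 least like the family mean, and the organelle transcripts. Plots were made in matplotlib 3.10.9 (Python 3.11.15). No sequences were used here.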

Additional observations from a re-analysis of the deposited data

How the results depend on the processing

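The OTP median of -0.18 stayed below 0 under every alternative run, from -0.235 to -0.0597 with single arrays left out (the latter without control replicate 3) and at -0.135 after equal quantiles, -0.14 with median centring, -0.139 with array weights and -0.103 without both replicate 3 arrays. The replicate block leaves it at -0.176. The median over all probe sets, where computed, was below 0 too. It ran from -0.049 to -0.023 with single arrays left out. It was -0.0087 after equal quantiles, -0.00071 with median centring, -0.034 with array weights and -0.018 without both replicate 3 arrays. The list median ran from -0.182 to -0.0187 with single arrays left out. Of 88 values of single OTP genes under the alternatives, 83 moved by less than 1 SD, 1 moved further (OTP70 without both replicate 3 arrays, -0.597) and 4 changed sign: OTP86 to 0.0214 without control replicate 3 and 0.00595 without 35S-PaWRKY1 replicate 1, OTP43 to 0.00799 without 35S-PaWRKY1 replicate 2, and OTP80 to 0.0189 without both replicate 3 arrays. With single arrays left out, OTP43 ran from -0.127 to 0.00799 and OTP86 from -0.238 to 0.0214. The cause was not tested. Under each of these alternatives 0 OTP genes passed the adjusted threshold in limma, and 0 to 4 had an unadjusted p under 0.05. The 4 were found without control replicate 3, where 1848 of 22746 probe sets had such a p. Without both replicate 3 arrays there were 3, and 1914 of all probe sets. With array weights there were 2, and 2704 of all probe sets.

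The count of 7 probe sets called for genotype was 7 with median centring, 11 with array weights, 6 with the replicate block (3 of them among the 7), 1 at an adjusted p under 0.01, and 0 after equal quantiles, with an equal-variance test or without both replicate 3 arrays. With single arrays left out it was 0 to 1, the 0 being without 35S-PaWRKY1 replicate 2. Where the count was 0, there were 1022, 1745, 1914 and 1062 probe sets, in that order, with an unadjusted p under 0.05 in limma or, for the second, in the equal-variance test. The count of 97 probe sets called for the replicate number was 96 with median centring, 94 with array weights, 33 at an adjusted p under 0.01 and 0 after equal quantiles, where limma gave 2374 probe sets at an unadjusted p under 0.05. The replicate block changed no call of an OTP or list gene. The values are centred, so signal over background is unknown.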
